A study of Mus musculus with 4 samples.

Results

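NRF2 target genes and antioxidant enzymes were followed as a set of 46 genes, listed by symbol, in brain cortex of mice given TCQA or water. The set holds the regulators of the pathway and the enzymes of glutathione, thioredoxin, peroxide, superoxide, NADPH, iron and metal handling. A row of the value table carried the symbol of 42 of the 46, out of 19505 gene symbols on 19572 named transcript clusters, and the brightest row stood for a symbol that had several. Prdx5, Prdx6, G6pdx and Tkt are not analysed here. The mice were males of SAMR1, an inbred line that serves as the normally ageing counterpart of the senescence-accelerated strains, and no transgene is named. All were caged alone for 4 months from the age of 7 months. At 11 months one group began daily oral TCQA (tricaffeoylquinic acid, an ester of quinic acid with caffeic acid that occurs in plants) at 5 mg/kg for 1 month, and the control group was given purified MilliQ water. Each group had 2 Clariom S arrays, 4 in all, each made from 100 ng of RNA. Whether an array stands for a single mouse or for pooled mice is not stated. Each p-value of the main test weighs a difference against the spread between arrays of a group, moderated over all clusters. That spread may be technical.

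NRF2 (gene Nfe2l2) is a transcription factor that the adaptor KEAP1 holds in the cytoplasm and hands to the proteasome. When electrophiles or oxidants modify cysteines of KEAP1, NRF2 escapes, enters the nucleus, pairs with a small MAF protein and binds antioxidant response elements, while BACH1 occupies many of the same elements as a repressor. Its best known targets make glutathione and thioredoxin reductase, reduce quinones, break down haem and supply NADPH. In brain this programme is most active in astrocytes, which export glutathione precursors to neurons. Caffeic acid esters are catechols, and catechols are a chemical class known to act on KEAP1 in cultured cells.

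The promoters of the measured genes were searched for the core of the antioxidant response element, TGACNNNGC, on both strands, because this is the sequence through which NRF2 acts. RefSeq promoter windows (GRCm38.p6, from 250 bases before to 50 after an annotated start) were matched for 36 of the 42 measured genes, and 10 of them held the core (27.8%), beside 14% of all 27025 genes in the table. Each match is printed here from 5′ to 3′ on the strand that reads TGAC, with the core in capitals and 10 bases on either side in lower case.
Nfe2l2 (chr2:75704885-75704913, minus strand, 240 bases before the start): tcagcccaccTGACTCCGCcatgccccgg
Gclm (chr3:122245413-122245441, minus strand, 134 bases before the start): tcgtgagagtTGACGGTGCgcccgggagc
Gstm5 (chr3:107895802-107895830, plus strand, 42 bases before the start): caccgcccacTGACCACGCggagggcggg
Txnrd1 (chr10:82859104-82859132, minus strand, 92 bases before the start): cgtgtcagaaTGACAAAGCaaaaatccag
Prdx1 (chr4:116685456-116685484, minus strand, 133 bases before the start): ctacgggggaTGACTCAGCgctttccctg
Srxn1 (chr2:152105542-152105570, minus strand, 28 bases after the start): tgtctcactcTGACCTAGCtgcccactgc
Sod1 (chr16:90220696-90220724, minus strand, 56 bases before the start): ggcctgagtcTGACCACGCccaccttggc
Pgd (chr4:149166061-149166089, minus strand, 3 bases after the start): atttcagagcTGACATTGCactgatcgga
Me1 (chr9:86695902-86695930, minus strand, 6 bases before the start): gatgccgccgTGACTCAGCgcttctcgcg
Mt2 (chr8:94172529-94172557, plus strand, 79 bases before the start): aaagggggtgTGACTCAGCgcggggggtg
The cores of Me1, Mt2 and Prdx1 share the letters TGACTCAGC, which also contain the AP-1 motif TGACTCA. That motif was found in 8 of the 36 genes (22.2%) and in 5.95% of all genes. A match describes letters in a window, and its absence says nothing about NRF2 binding elsewhere at a gene.

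The arrays resembled each other closely, with correlations across genes of 0.9919 and 0.9925 within the groups and of 0.9898 to 0.9927 between them. The median signal of an array, in log2 units, was between 6.98 and 7.04. Among negative control probe sets the median was 6.98 and the 95th percentile 11.06, and the log2 signals of single genes are read against those marks. By their mean over the 4 arrays, 19 of the 42 antioxidant genes lay above that percentile, 16 between the marks and 7 below the median of the negative controls. The 7 were Nfe2l2, Gpx7, Gpx8, Taldo1, Hmox1, Nqo1 and Osgin1, whose differences are uncertain in size because their signal cannot be told from that of a control probe set. The 16 between the marks were also within the range of control probe sets, so their signal is less secure than that of the 19. The tissue is labelled cortex. Of 9 excitatory neuron markers 0 lay below the control median and 6 above the 95th percentile, while of 9 striatal markers 0 lay below and 9 above, so these markers do not single out cortex. In tissue RNA, fewer cells of a type and less RNA per cell cannot be told apart.

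After a month of TCQA the antioxidant genes of the cortex differed little in the mean from their level in water-treated mice. The arrays cannot show that these genes were unchanged. For 7 of the 42 the 95% interval of the difference lay within 1.5-fold in both directions. The difference of TCQA minus water was positive for 26 genes and negative for 16, with a median of 0.07 on the log2 scale beside 0.00282 over all named transcript clusters. Differences ranged from -0.56 (Gpx7) to 0.34 (Cat), and their median size of 0.15 was below the 0.19 of all clusters. Arrays of the same group also differed, though 2 single arrays are expected to differ by more than 2 group means. The 2 TCQA arrays differed from each other by a median of 0.24 over these genes and the 2 water arrays by 0.17, beside 0.22 and 0.24 over all clusters. All clusters together are dimmer, with 9738 of 19572 below the control median against 7 of the 42 genes. No comparison matched for signal was made.

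**Figure D1:**
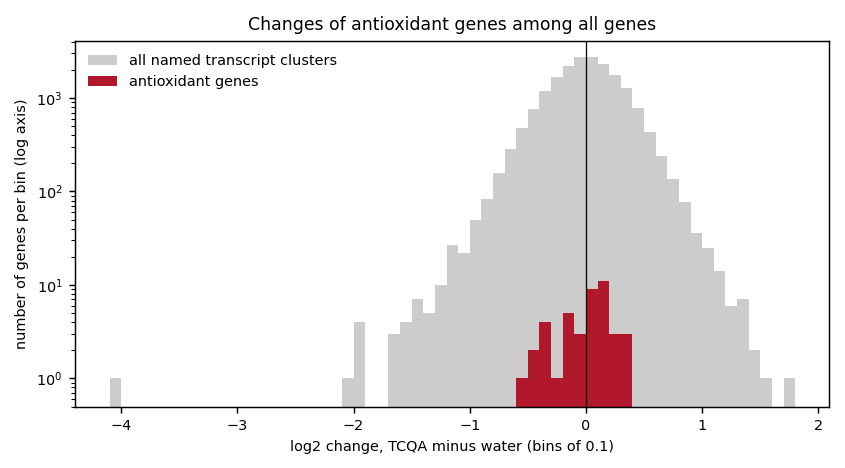
Number of genes (log axis) in bins of 0.1 by log2 change, TCQA minus water, for all 19572 named transcript clusters (grey) and the 42 antioxidant genes (red). The antioxidant genes lie between -0.56 and 0.34, within a background that runs from -4.06 to 1.78.

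Tested with limma, 1 of the 42 genes had an unadjusted p under 0.05 (2.38%), and it was lower in TCQA. Among all clusters the share was 7.37%, made up of 3.48% higher and 3.89% lower, so the count of antioxidant genes was not above the background. The authors called a gene where its unadjusted p was under 0.05 and it differed by more than 2-fold, criteria met by 0 antioxidant genes and by 0.664% of all clusters. After Benjamini-Hochberg adjustment in limma 0 antioxidant genes passed 0.05, as did 0% of all clusters, and the adjusted p of the antioxidant genes ran from 0.673 to 0.995.

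The intervals show what size of response the arrays could have missed. They bear on the 35 genes above the median of the negative controls, since below it an interval describes a signal like that of a control probe set. Of the 35, 16 lay below the 95th percentile of those controls, so their signal too was within the control range. For 34 of the 35 the 95% interval of the difference, taken gene by gene, lay within 2-fold in both directions, and that of Gpx3 included a 2-fold fall. A 2-fold rise was outside the interval of all 35, and a 1.5-fold rise was outside that of 13. Of the 35, 25 were higher and 10 lower with a median of 0.10, and 0 had an unadjusted p under 0.05 in limma.

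**Figure D2:**
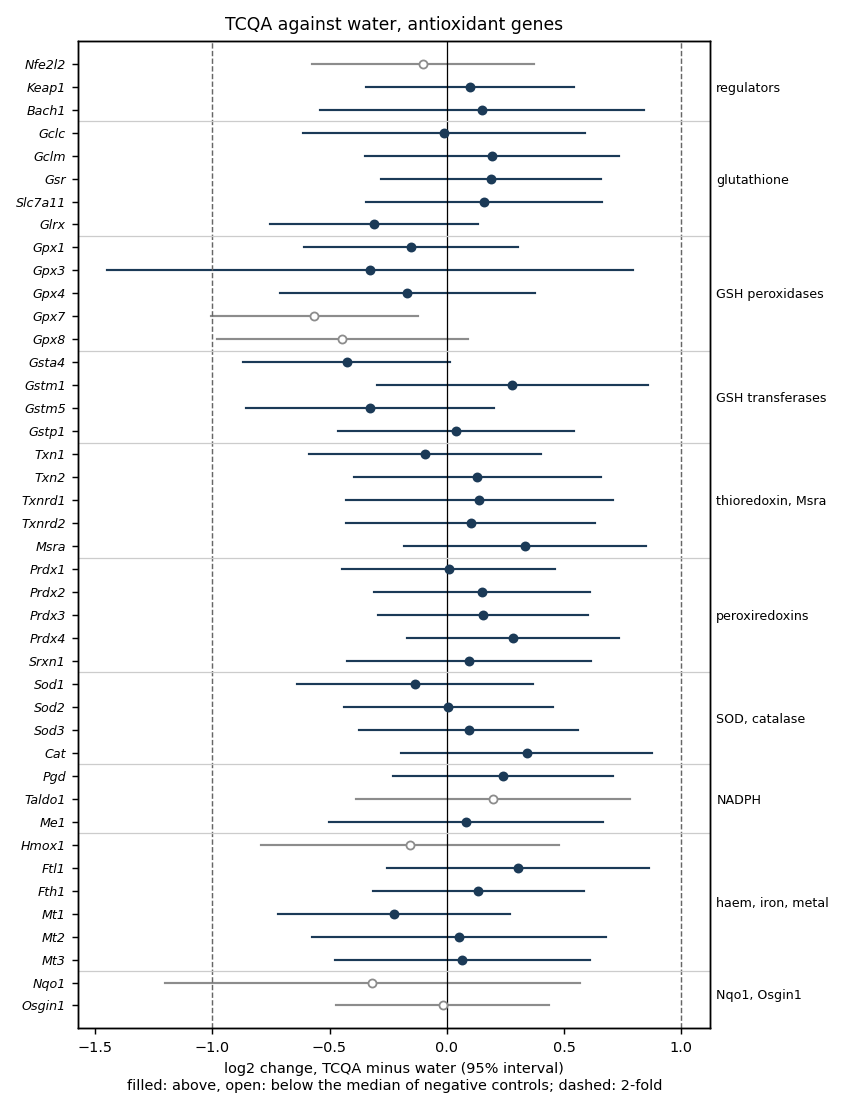
Log2 change, TCQA minus water, of each of the 42 antioxidant genes (points) with its 95% interval from limma (bars), ordered by role; filled points lie above and open points below the median of the negative controls, and dashed lines mark 2-fold. The interval of Gpx7 alone excludes 0, and those of Gpx3, Gpx7 and Nqo1 reach past a 2-fold fall.

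Of the regulators, 2 were higher and 1 lower with a median of 0.10, and none had an unadjusted p under 0.05 in limma. Nfe2l2, which encodes NRF2 itself, had log2 signals of 4.48 and 4.72 in the TCQA arrays and 4.66 and 4.74 in the water arrays, below the control median in all 4. The groups overlapped and the difference was -0.10 (SE 0.20, limma adjusted p = 0.918). Keap1, the adaptor that restrains NRF2, read 9.45 and 9.50 with TCQA and 9.41 and 9.34 with water. Both TCQA arrays were above both water arrays by a margin of 0.04, and the arrays of a group lay within 0.07 of each other. The difference was 0.10 (SE 0.18, limma adjusted p = 0.914). Bach1, the repressor, read 6.85 and 7.58 with TCQA and 7.21 and 6.91 with water. The 2 TCQA arrays enclosed the water arrays, and the difference of 0.15 (SE 0.29, limma adjusted p = 0.917) became -0.22 without TCQA 2. NRF2 is controlled mainly through protein stability, which arrays do not measure.

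Genes of glutathione synthesis and recycling had a median difference of 0.16, with 3 of 5 higher and 2 lower and none with an unadjusted p under 0.05. Gclc, the catalytic subunit of glutamate-cysteine ligase and the rate-limiting enzyme of glutathione synthesis, read 10.36 and 10.26 with TCQA and 10.62 and 10.02 with water. The water arrays enclosed the TCQA arrays and the difference was -0.01 (SE 0.25), with an interval of -0.61 to 0.59. Gclm, the modifier subunit of the same ligase and a widely used NRF2 target, read 11.83 and 11.54 with TCQA and 11.31 and 11.68 with water. TCQA 1 was highest and water 1 lowest, the groups overlapped, and the difference was 0.19 (SE 0.23, limma adjusted p = 0.846). Slc7a11, the exchanger that imports cystine for glutathione, read 10.33 and 10.65 with TCQA and 10.41 and 10.25 with water. Its groups overlapped at a difference of 0.16 (SE 0.21, limma adjusted p = 0.870).

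Glrx was the gene of this role with the smallest p. Glutaredoxin, its product, uses glutathione to release proteins from mixed disulfides. Its log2 signals were 10.80 and 10.80 with TCQA and 11.08 and 11.15 with water. Both TCQA arrays lay below both water arrays by 0.28, and the difference was -0.31 (SE 0.18, limma unadjusted p = 0.138, adjusted p = 0.706). Gsr, glutathione reductase, which returns oxidised glutathione to its reduced form, had a difference of 0.19 (SE 0.20) with both TCQA arrays higher by 0.04.

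The 5 glutathione peroxidase genes of the set were all lower in TCQA in the mean. Their median of -0.33 was the value of Gpx3. Without water 1, Gpx3 and Gpx4 were instead higher, by 0.40 and 0.03. Outside the set, Gpx2, Gpx5 and Gpx6 of the same family differed by -0.05, -0.04 and 0.07, with signals below the control median. Gpx7, an endoplasmic reticulum member of the family, held the single unadjusted p under 0.05 of the whole set. It read 5.79 and 5.85 with TCQA and 6.37 and 6.39 with water, all below the control median. The groups stood apart by 0.53, more than any other antioxidant gene, and the difference was -0.56 (SE 0.18, 95% interval -1.01 to -0.12, limma unadjusted p = 0.0200, adjusted p = 0.673). The unadjusted p passed 0.05 no longer when any 1 array was left out, with differences between -0.59 and -0.54. Gpx8, the other reticulum member, read 5.76 and 6.20 with TCQA and 6.37 and 6.47 with water, again below the control median. The TCQA arrays were the lower ones, by 0.18 at the nearest, and the difference was -0.45 (SE 0.22, limma unadjusted p = 0.0883, adjusted p = 0.689), with an unadjusted p of 0.0421 without TCQA 2.

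Gpx3, the secreted plasma-type peroxidase, was the least settled of the set. It read 8.40 and 8.91 with TCQA and 9.71 and 8.26 with water. The highest and the lowest array were both water arrays, and the difference was -0.33 (SE 0.47, 95% interval -1.45 to 0.79, limma adjusted p = 0.881). Without water 1 the difference was 0.40, and without water 2 it was -1.05 with an unadjusted p of 0.0136, past the study's criteria. Gpx1, the abundant cytosolic enzyme, differed by -0.15 (SE 0.19) with both TCQA arrays lower by 0.03. Gpx4, which reduces lipid peroxides and guards cells from ferroptosis, differed by -0.17 (SE 0.23) with overlapping groups.

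Glutathione transferases, which conjugate glutathione to electrophiles, went both ways, 2 higher and 2 lower, with a median of -0.14. Gsta4, which clears the lipid peroxidation product 4-hydroxynonenal, read 11.16 and 11.11 with TCQA and 11.56 and 11.57 with water. The groups stood apart by 0.39 with TCQA lower, and the arrays of a group lay within 0.06 of each other. The difference was -0.43 (SE 0.18, 95% interval -0.87 to 0.01, limma unadjusted p = 0.0561, adjusted p = 0.681). Its unadjusted p moved below 0.05 under 5 of the 14 alternative settings and lay between 0.00445 and 0.0334 there. Gstm5 differed by -0.33 (SE 0.22) with both TCQA arrays lower by 0.11. Gstm1 and Gstp1 differed by 0.28 (SE 0.24) and 0.04 (SE 0.21) with overlapping groups. Over all 14 glutathione genes of the set, 5 were higher and 9 lower with a median of -0.16.

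**Figure D3:**
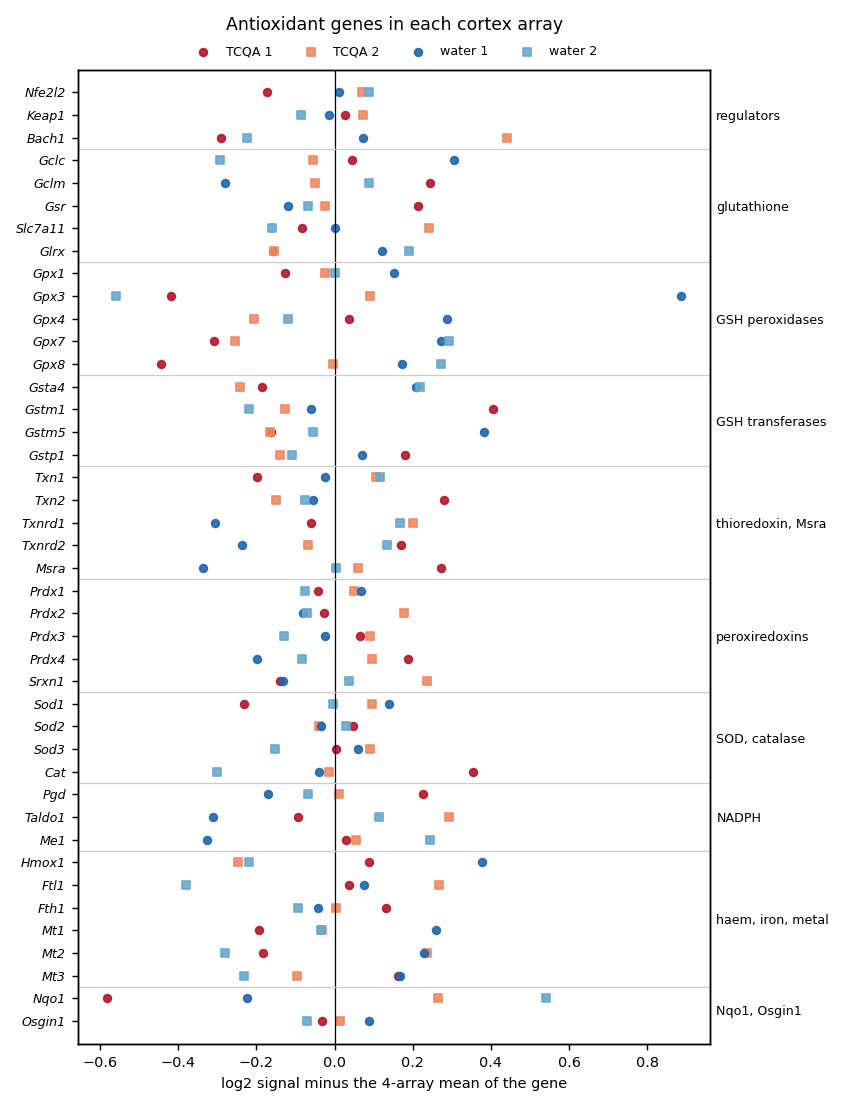
Log2 signal of each of the 42 antioxidant genes in each array, minus the mean of that gene over the 4 arrays, ordered by role; red and orange are the TCQA arrays and dark and light blue the water arrays. In 27 genes the groups overlap, and the widest spread is that of Gpx3, set by water 1.

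In the thioredoxin system, which reduces protein disulfides with electrons from NADPH, 4 of 5 genes were higher and 1 lower with a median of 0.13. Txnrd1, the cytosolic thioredoxin reductase and an NRF2 target, read 10.51 and 10.77 with TCQA and 10.27 and 10.74 with water. Water 1 was lowest and the groups overlapped, and the difference was 0.14 (SE 0.24, limma adjusted p = 0.907). Msra, a methionine sulfoxide reductase that repairs oxidised methionine, read 12.23 and 12.02 with TCQA and 11.62 and 11.96 with water. The TCQA arrays were the higher ones, by 0.06 at the nearest, and the difference was 0.33 (SE 0.21, limma unadjusted p = 0.168, adjusted p = 0.724). Thioredoxin itself (Txn1), its mitochondrial form (Txn2) and the mitochondrial reductase (Txnrd2) differed by -0.09, 0.13 and 0.10, with SEs of 0.21, 0.22 and 0.22 and overlapping groups.

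All 5 measured genes of the peroxiredoxins, the thiol peroxidases that take most cellular peroxide, and of sulfiredoxin were higher in the mean, with a median of 0.15. Prdx4, the peroxiredoxin of the endoplasmic reticulum, read 9.18 and 9.09 with TCQA and 8.80 and 8.91 with water. The groups stood apart with TCQA higher by 0.18, the widest margin among the antioxidant genes that were higher, and the difference was 0.28 (SE 0.19, 95% interval -0.17 to 0.73, limma adjusted p = 0.733). Srxn1, which restores overoxidised peroxiredoxins and is one of the most inducible NRF2 targets, read 8.77 and 9.14 with TCQA and 8.78 and 8.94 with water. TCQA 1 was lowest and TCQA 2 highest, the groups overlapped, and the difference was 0.10 (SE 0.22, limma adjusted p = 0.931). Prdx2 and Prdx3, the peroxiredoxins of neuronal cytosol and of mitochondria, differed by 0.15 (SE 0.19) and 0.15 (SE 0.19) with both TCQA arrays higher, and Prdx1 by 0.01 (SE 0.19) with overlap.

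Among the superoxide dismutases and catalase 3 genes were higher and 1 lower with a median of 0.05, which was 0.0137 without water 2, 0.083 without TCQA 1 and 0.088 without water 1. Cat, the peroxisomal enzyme that splits hydrogen peroxide, had the most positive difference of the set with all 4 arrays. It read 11.44 and 11.07 with TCQA and 11.04 and 10.78 with water. TCQA 1 was highest and TCQA 2 exceeded water 1 by 0.03, and the difference was 0.34 (SE 0.22, 95% interval -0.19 to 0.88, limma unadjusted p = 0.172, adjusted p = 0.727). It was 0.16 without TCQA 1, 0.21 without water 2 and 0.52 without TCQA 2. The dismutases, which turn superoxide into peroxide, differed by -0.14 (SE 0.21) for the cytosolic Sod1, 0.01 (SE 0.19) for the mitochondrial Sod2 and 0.09 (SE 0.19) for the extracellular Sod3. In all 3 the groups overlapped.

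The measured genes of NADPH supply, which feed both thiol systems, were higher in 3 of 3 with a median of 0.20. That median was the value of Taldo1, whose signal lay below the control median. Without water 1 that median was -0.01, with Me1 at -0.20 and Taldo1 at -0.01, and it was 0.07 without TCQA 2 and 0.37 without water 2. Pgd, the phosphogluconate dehydrogenase of the pentose phosphate pathway, read 9.90 and 9.68 with TCQA and 9.50 and 9.60 with water. TCQA was higher in both arrays by 0.08 and the difference was 0.24 (SE 0.19, limma unadjusted p = 0.263, adjusted p = 0.776). Taldo1, transaldolase of the same pathway, and Me1, the cytosolic malic enzyme, differed by 0.20 (SE 0.24) and 0.08 (SE 0.24) with overlapping groups.

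Hmox1, the inducible haem oxygenase and the target most often read as a sign of NRF2 activity, read 6.55 and 6.21 with TCQA and 6.83 and 6.24 with water, below the control median throughout. The groups interleaved and the difference was -0.16 (SE 0.26, 95% interval -0.79 to 0.48, limma adjusted p = 0.905). Ftl1, the ferritin light chain, which stores the iron freed from haem, read 11.90 and 12.13 with TCQA and 11.94 and 11.48 with water. TCQA 2 was highest and water 2 lowest, water 1 lay between the TCQA arrays, and the difference was 0.30 (SE 0.23, limma adjusted p = 0.763). Fth1, the heavy chain, differed by 0.13 (SE 0.19) with both TCQA arrays higher by 0.05.

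Metallothioneins are cysteine-rich proteins that bind zinc and copper and quench radicals, Mt1 and Mt2 inducibly and chiefly in astrocytes, Mt3 constitutively in brain. Mt1 read 17.11 and 17.27 with TCQA and 17.56 and 17.27 with water. Water 1 was highest, the groups overlapped and the difference was -0.22 (SE 0.21, limma adjusted p = 0.798). Mt2 read 16.56 and 16.98 with TCQA and 16.98 and 16.46 with water, so each group held a high and a low array, at a difference of 0.05 (SE 0.26, limma adjusted p = 0.971). Mt3 read 13.15 and 12.89 with TCQA and 13.15 and 12.75 with water. It too had a high and a low array in each group, and the difference was 0.07 (SE 0.23, limma adjusted p = 0.958), or -0.0036 after quantile normalisation. The pattern TGCNCNC, a loose form of the metal response element core, occurred 3, 6 and 3 times in the promoters of Mt1, Mt2 and Mt3, searched on both strands. It admits letters that the stricter core does not, so a match need not be a metal response element. At least 1 match to this loose pattern lay in the promoter of 19 of the 36 antioxidant genes (52.8%) and of 53.6% of all genes.

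Nqo1, the quinone reductase whose induction defines the classical NRF2 response, read 5.27 and 6.12 with TCQA and 5.63 and 6.40 with water, all below the control median. Each group again held a high and a low array, and the difference was -0.32 (SE 0.37, 95% interval -1.20 to 0.57, limma adjusted p = 0.845). Osgin1, an NRF2-responsive growth inhibitor, differed by -0.02 (SE 0.19) with overlapping groups and was also below the control median. For the targets most used as readouts and above the control median, the upper bound of the 95% interval was read gene by gene. That bound was 1.505-fold for Gclc, 1.67-fold for Gclm, 1.58-fold for Slc7a11, 1.64-fold for Txnrd1 and 1.53-fold for Srxn1. Of these, Gclm alone lay above the 95th percentile of the negative controls. For the others the bound is one on a signal within the range of control probe sets. For Hmox1 and Nqo1 the signals set no such bound on the transcript.

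Counted by array order, both TCQA arrays exceeded both water arrays in 9 antioxidant genes (21.4%), beside 19.9% of all clusters. The 9 were Keap1, Gsr, Msra, Prdx2, Prdx3, Prdx4, Cat, Pgd and Fth1, and their margins ran from 0.03 to 0.18. Both TCQA arrays were below both water arrays in 6 genes (14.3%), beside 19.2% of all clusters. These were Glrx, Gpx1, Gpx7, Gpx8, Gsta4 and Gstm5, with margins from 0.03 to 0.53. All of them were listed under the glutathione roles, and Gpx7 and Gpx8 lay below the control median. Of 36 measured glutathione genes outside the set, 8 had both TCQA arrays higher (22.2%) and 5 both lower (13.9%). For the antioxidant set after quantile normalisation the counts were 1 higher (2.38%, beside 19.0% of all clusters) and 6 lower (14.3%, beside 19.7%), and the median difference was 0.03. After centring each array on its median they were 8 and 7, beside 18.4% and 20.9%.

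Genes with and without the response element core in the promoter window were set side by side. The 10 genes whose elements are printed above were higher in 7 cases and lower in 3, with a median of 0.07 and a range from -0.33 (Gstm5) to 0.24 (Pgd). The 26 genes without a core were higher in 16 cases and lower in 10, with a median of 0.08 and a range from -0.56 to 0.34. The 3 genes that share TGACTCAGC, namely Me1, Mt2 and Prdx1, differed by 0.08, 0.05 and 0.01. No window was matched for Gsr, Gclc, Gsta4, Hmox1, Sod3 and Msra.

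Several lists of markers of other tissues and cell types also differed between the same arrays. Of 13 markers of the choroid plexus and ependyma 12 were measured and all 12 had lower means with TCQA, with a median difference of -1.15, and 7 of the 12 lay below the control median. Their mean log2 signal was 6.49 and 6.03 in the TCQA arrays and 7.78 and 7.19 in the water arrays, so the groups did not overlap. Striatal markers were lower in 9 of 9, with a median of -0.69 and means of 13.18 and 12.61 against 14.16 and 12.97. Markers of myelinating oligodendrocytes were lower in 8 of 9, with a median of -0.40 and means of 11.26 and 11.19 against 11.91 and 11.29. Microglial markers were lower in 9 of 9 with a median of -0.12. The water 1 array, which set the high value of Gpx3, was the highest array for all 4 of these lists.

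Astrocyte markers, 10 of 10 measured, were lower in 6 and higher in 4 with a median of -0.09. Their means were 12.30 and 12.46 in the TCQA arrays and 12.58 and 12.37 in the water arrays, with water 1 highest and TCQA 1 lowest. Endothelial markers were higher in 9 of 10 with a median of 0.25 and means of 10.06 and 10.02 against 9.64 and 9.76, and those of mural cells were higher in 7 of 9 with a median of 0.25. Olfactory bulb markers reached a mean of 8.01 in TCQA 2 and between 5.72 and 6.21 in the other 3 arrays. Excitatory neuron markers were higher in 7 of 9 with a median of 0.54, and were lowest in water 1, and inhibitory neuron markers were higher in 5 of 8 with a median of 0.17. Both of the blood markers measured, of 6, were higher with a median of 0.18. Thalamic markers were lower in 6 of 9 with a median of -0.64. Meningeal fibroblast markers were lower in 4 and higher in 6 of 10, with a median of 0.04. The part of these tissues and cells in the differences of the antioxidant genes was not tested.

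**Figure D4:**
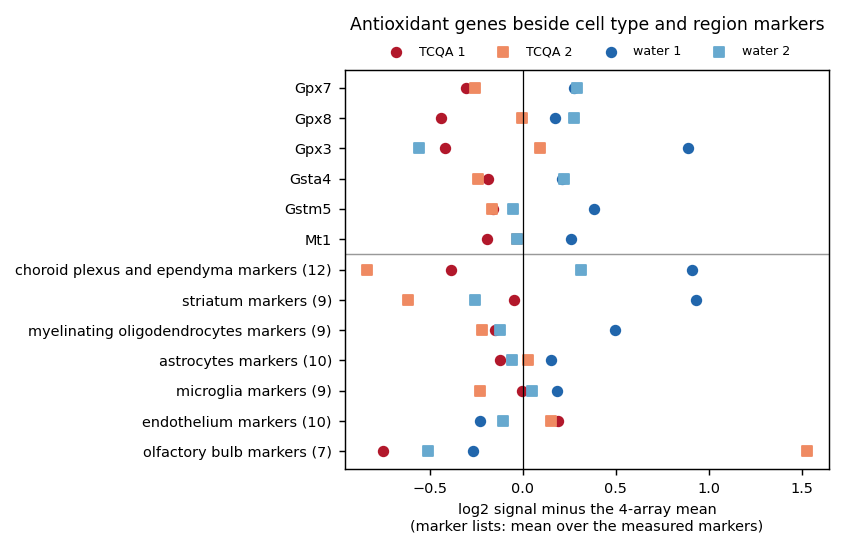
Log2 signal minus the 4-array mean for 6 antioxidant genes (top) and for 7 lists of cell type and region markers (bottom, mean over the measured markers, number in brackets), in each array. The genes and lists shown are a selection made with earlier results of these data known. The choroid plexus, striatum, oligodendrocyte, astrocyte and microglia lists are highest in water 1, as are Gpx3, Gstm5 and Mt1. Gpx7, Gpx8 and Gsta4 are highest in water 2. A link between the lists and the genes was not tested. The olfactory bulb list stands apart in TCQA 2.

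Other genes of the same pathways also gave a low count. Of 131 such genes 124 were measured, 73 higher and 51 lower, with a median of 0.06. By limma, 3 had an unadjusted p under 0.05 (2.42%), all 3 higher in TCQA, beside the 7.37% of all clusters. Ggt7, a brain member of the gamma-glutamyltransferase family, read 12.23 and 12.23 with TCQA and 11.36 and 11.68 with water. Both TCQA arrays were higher and alike, at a difference of 0.71 or 1.64-fold (SE 0.20, limma unadjusted p = 0.0115, adjusted p = 0.664), though the unadjusted p was 0.0646 without water 1. Aldh1a1, an aldehyde dehydrogenase that also makes retinoic acid, read 9.05 and 8.78 with TCQA and 8.53 and 8.20 with water. Its groups did not overlap and the difference was 0.55 or 1.46-fold (SE 0.22, limma unadjusted p = 0.0435, adjusted p = 0.673), with unadjusted p-values of 0.196 without TCQA 1 and 0.195 without water 2. Heph, the ferroxidase hephaestin that helps iron leave cells, read 5.93 and 6.16 with TCQA and 5.54 and 5.16 with water, below the control median. Its groups too stood apart with TCQA higher, and the difference was 0.69 or 1.62-fold (SE 0.22, limma unadjusted p = 0.0181, adjusted p = 0.673), with unadjusted p-values of 0.0885 without TCQA 2 and 0.0966 without water 2.

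By group, the partners and regulators of NRF2 were higher in 13 of 16 measured genes with a median of 0.14, and none had an unadjusted p under 0.05. Over all clusters 9879 of 19572 were higher. Further genes of iron and metal handling were higher in 11 of 15 with a median of 0.19, and Heph was the single one with an unadjusted p under 0.05. Further glutathione genes were higher in 19 of 36, thioredoxin genes in 13 of 25 and NADPH genes in 8 of 13, with medians of 0.01, 0.01 and 0.05. Enzymes of xenobiotic and carbonyl metabolism were higher in 9 of 19 with a median of -0.04. Over all 124 genes both TCQA arrays exceeded both water arrays in 37 (29.8%, beside 19.9% of all clusters) and lay below them in 13 (10.5%, beside 19.2%). After quantile normalisation these shares were 21.8% and 12.9%, and the median difference was 0.02. As with the antioxidant set, the genes were listed with earlier results of these arrays known, so these counts are a description.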

How the data were processed

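Cortex RNA of 4 samples was measured on Clariom S mouse arrays. Per the submitters' design text, the authors normalised the scans by signal space transformation RMA (software Transcriptome Analysis Console, version 4.0.2), and the deposited table gives log2 signals. The signal space transformation can widen fold changes relative to plain RMA. The build behind the array's transcript clusters was not given in the sources used here. Of 28846 rows 19572 carried a gene symbol in the platform annotation, 6640 were control probe sets and 2634 were unnamed. The 5222 negative control probe sets served as the mark for low signal.

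TCQA was compared with water in limma 3.58.1 (R 4.3.3; lmFit and eBayes, moderated 2-sided test, no covariate) over all 19572 clusters, with Benjamini-Hochberg adjustment over all of them. The median SE of a log2 change was 0.22, so a 95% interval reached about 0.52 to either side. Precision is limited by the number of arrays. Differences of the control genes were 0.02 for Actb, -0.09 for Gapdh and 0.26 for Hprt. Same-numbered arrays did not deviate together (correlation -0.0032), so the labels' replicate numbers were not used to pair them. Values in every array are given for antioxidant genes with an unadjusted p under 0.05, for the smallest p of each role, for the regulators and most used NRF2 targets and for the metallothioneins. Gpx3, Gpx8 and the leave-out values were singled out after their values were seen. The genes, lists and rules were chosen with earlier results of these data known. The fitting code was checked on data simulated from the model's own assumptions, which cannot show that those assumptions hold for these arrays. Promoter sequences came from RefSeq (GRCm38.p6). Alternatives covered the variance prior, array weights, scaling, filters on dim signal, duplicate rows, leaving out each array and a replicate block. Python 3.11.15 with matplotlib 3.10.9 drew the figures.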

Additional observations from a re-analysis of the deposited data

How the results depend on the processing

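Of 286 values of 21 antioxidant genes under 14 alternative settings, 259 kept their direction and their side of an unadjusted p of 0.05 in limma, 6 newly passed it, 5 no longer did and 16 changed sign. The count of antioxidant genes with an unadjusted p under 0.05 was 3 without the empirical Bayes step (Glrx, Gpx7 and Gsta4), 2 after quantile normalisation (Gpx7 and Gsta4) and 0 to 1 with single arrays left out. With a variance trend, or with either filter on dim signal, it was 1 again, but Gsta4 in place of Gpx7. With the replicate block it was 1 (Gpx7), and the block changed no call among the antioxidant genes. The count past the study's criteria was 0 to 1 with single arrays left out (Gpx3 without water 2). The adjusted count was 0 in all settings. The count of further pathway genes was 5 with the trend, 6 without the empirical Bayes step and 3 to 8 with single arrays left out. Quantile normalisation gave medians of 0.034 for the set, 0.088 for glutathione synthesis, 0.076 for peroxiredoxins and 0.0152 for the dismutases and catalase, 1 gene with both TCQA arrays higher, and -0.0036 for Mt3; the scalings of the counts by array order were chosen after seeing the data.

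With single arrays left out, the median of the set ran from 0.0092 to 0.10. Role medians ran from 0.039 to 0.16 for glutathione synthesis, from -0.58 to -0.077 for the peroxidases, from -0.24 to 0.0096 for the transferases, from -0.083 to 0.29 for the thioredoxin system, from 0.0497 to 0.24 for peroxiredoxins, from -0.22 to 0.13 for the regulators, from -0.014 to 0.37 for NADPH supply, from 0.0137 to 0.088 for the dismutases and catalase, from -0.39 to 0.056 for Nqo1 with Osgin1 and from -0.17 to 0.21 for haem, iron and metal genes. Log2 changes ran from -0.22 to 0.0198 for Nfe2l2, from -0.22 to 0.52 for Bach1, from -0.31 to 0.29 for Gclc, from -0.0039 to 0.32 for Slc7a11, from -0.098 to 0.38 for Txnrd1, from -0.092 to 0.28 for Srxn1, from -0.45 to 0.14 for Hmox1, from -0.20 to 0.31 for Mt2, from -0.13 to 0.27 for Mt3 and from -0.74 to 0.11 for Nqo1. The cause of these shifts was not tested beyond the loss of an array. Signal below the median of the negative controls limits Nfe2l2, Gpx7, Gpx8, Taldo1, Hmox1, Nqo1 and Osgin1, and 16 further antioxidant genes lay below the 95th percentile of those controls.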
